A study of Saccharomyces cerevisiae with 6 samples.

Results

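The genes described here encode the respiratory chain and the ATP synthase of budding yeast, *Saccharomyces cerevisiae*. They were taken by name: genes named COX, QCR, ATP or SDH with a number, and the genes COR1, CYT1, RIP1, CYC1, CYC7, CYB2, NDI1, NDE1, NDE2, TIM11 and STF1. Of the 4909 genes of the deposited table, 58 met this rule, 50 by family name and 8 listed singly. The reference annotation holds 70 such names, and 12 of them are not analysed here (ATP10, ATP6, ATP8, COX1, COX2, COX3, COX26, CYB2, NDE2, NDI1, SDH1 and SDH9). Of the 58 genes, 35 encode subunits of the enzyme complexes, 20 encode assembly factors and regulators, and the remaining 3 are NDE1, CYC1 and CYC7.

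Nanopore sequencing of native poly(A)-containing RNA gave a read count and a median tail length for each gene in 6 libraries, 2 from each of 3 strains. The Ccr4/Pop2 degron strain (LMA5601) carries the alleles AID-3Flag-CCR4 and CAF1(YNR052c)::AID-KanMX6, CAF1 being another name of POP2. The Dcp2 degron strain (LMA5574) carries DCP2(YNL118c)::polyG-3Flag-AID::kanMX. Both are described as BY4741 and share 3 further changes, RME1(YGR044c) insert A -308, TAO3_E1493Q and a trp1-1::TRP1 construct that holds prURA3-Z3EVtf-tURA3 and Z3EV-TIR, which the wild type, BY4741 (leu2Δ0 his3Δ1 ura3Δ0 met15Δ0), is not labelled as carrying, and all 3 are Mat a. Every culture, wild type included, was exponential in YPD at 30 °C (OD600 of 0.4) when 100 µM IAA, an auxin, and 1 µM β-estradiol were added, and 1 h passed before harvest. Each degron is represented by 1 strain, and in a comparison with the wild type the degron cannot be told apart from the alleles that only the degron strains carry. The degron strains differ from each other, as labelled, only by the degron alleles. Both comparisons with the wild type share its 2 libraries.

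Messenger RNA decay in yeast usually starts with shortening of the poly(A) tail by Ccr4 and Pop2, nucleases within the Ccr4-Not complex, and goes on with decapping by Dcp2, after which the body is degraded. The AID tag marks a protein for destruction once auxin is added. The respiratory chain passes electrons to oxygen in the mitochondrial inner membrane, and some of its complexes pump protons. Complex II (succinate dehydrogenase) and the NADH dehydrogenases feed electrons in, complex III hands them to cytochrome c, and complex IV (cytochrome c oxidase) reduces oxygen. ATP synthase uses the proton gradient. In glucose medium yeast mainly ferments, and transcription of many subunit genes is then low because it depends on the Hap complex, which binds CCAAT boxes in promoters. Many messenger RNAs for mitochondrial assembly and translation are bound by Puf3, a protein that recognises a short motif after the stop codon and recruits the deadenylation machinery, and COX17 is its textbook target.

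Subunit genes and assembly genes differed in these sequence features. The Puf3 motif TGTANATA was searched on the transcribed strand in the 200 bases after the stop codon. It was present in 765 of the 4907 genes of the table found in the annotation (15.6%), in 5 of the 35 subunit genes (14.3%) and in 15 of the 20 assembly genes (75.0%), among them 9 of the 10 genes of complex IV assembly (90%). The CCAAT box was searched as CCAAT or ATTGG in the 250 bases before the start codon. It was present in 1758 of the 4907 genes (35.8%), in 31 of the 35 subunit genes (88.6%) and in 8 of the 20 assembly genes (40.0%). A match is a description of these letters in the window and not evidence of binding. The stretches that follow are from the RefSeq R64 reference, on the strand of the gene from 5′ to 3′, with the motif in capitals. They show the motif of 4 assembly genes whose level rose in Ccr4/Pop2 degron cells (COX17, COX23, SDH7 and ATP12), of ATP23, an assembly gene whose level did not, and of ATP1, a subunit gene.
COX17, chrXII:131155-131184, minus strand, motif starting at base 32 after the stop codon: caaccatttctTGTATATAtaagaataggt
COX17, chrXII:131110-131139, minus strand, motif starting at base 77: tatatactaccTGTAAATAtgtgcgatgca
COX23, chrVIII:342240-342269, plus strand, motif starting at base 131: tcgcaatggtaTGTAAATAagcaagctaaa
COX23, chrVIII:342291-342320, plus strand, motif starting at base 182: aaagaatttttTGTATATAtctctacatac
SDH7, chrIV:1470429-1470458, plus strand, motif starting at base 22: tttattgcgctTGTAAATAagaaatccata
ATP12, chrX:87492-87521, minus strand, motif starting at base 73: tcgaaaatttcTGTAAATAaacatgattat
ATP23, chrXIV:667342-667371, minus strand, motif starting at base 50: atatagacgctTGTAAATAataaaaaaaaa
ATP1, chrII:38729-38758, plus strand, motif starting at base 50: tcaaaaagaaaTGTAAATAtagaaatttta

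Boxes are shown, in capitals, for the subunit gene of each complex that had a box and fell furthest in Dcp2 degron cells. The subunit genes without a box were COR1, CYT1, COX4 and ATP1. Of these, COR1, COX4 and ATP1 also fell in Dcp2 degron cells and CYT1 did not. A link between the box and the level was not tested. SDH3 and ATP2 hold CCAAT on the strand of the gene, and QCR6 and COX5A hold it on the opposite strand, which reads ATTGG here.
SDH3, chrXI:179626-179655, plus strand, box 29 bases before the start codon: aaccaaaaattgCCAATcacaagctctaag
ATP2, chrX:647549-647578, plus strand, box 46 bases before the start codon: gtctgttgttatCCAATttatactgaatct
QCR6, chrVI:224858-224887, minus strand, box 106 bases before the start codon: cttaagggcagtATTGGttggcgcttattt
COX5A, chrXIV:531568-531597, plus strand, box 145 bases before the start codon: tcctcgtttgtgATTGGccctacgttttgc

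Libraries held between 1067250 and 8450296 counts over the listed genes. All counts of Ccr4/Pop2 degron replicate 1, the largest library, were multiples of 4, so its counts may not be numbers of separate reads. Levels are given as CPM (read counts on a common scale, set by edgeR's TMM method), and 3 reads corresponded to between 0.321 and 2.42 CPM. Replicates 1 and 2 differed in the same way in every strain: the difference between them fell with coding length, with a Spearman correlation across 4907 genes of -0.504 in Ccr4/Pop2 degron cells, -0.503 in Dcp2 degron cells and -0.517 in the wild type. Respiratory genes are short, with a median coding length of 456 bases against 1194 for all genes, and their median difference of replicate 2 minus replicate 1 on the log2 scale was 0.41 in Ccr4/Pop2 degron cells, 0.37 in Dcp2 degron cells and 0.58 in the wild type. Levels were therefore tested both with and without a block for replicate number. The main fit had no block, and the labels state no pairing. The block is an alternative, adopted from a check of the pairing on these data that is given with the methods. POP2 RNA was at 43.7 and 30.8 CPM in Ccr4/Pop2 degron cells, 51.9 and 34.4 CPM in Dcp2 degron cells and 70.5 and 49.9 CPM in the wild type, and DCP2 RNA at 60.0 and 49.4, 22.8 and 22.7, and 50.9 and 54.7 CPM in the same strains. The tags act on the proteins, so these RNA values do not check the depletion. Of the strain markers, the mating type a genes MFA1, MFA2, STE2 and BAR1 had counts in every library and LEU2, URA3, MET17 and STE3 were not listed, while HIS3, which is labelled his3Δ1 in the wild type, was listed with 74 to 716 counts.

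Assembly genes and subunit genes moved apart in the degron strains. With the replicate block, 11 of the 20 assembly genes rose and 0 fell in Ccr4/Pop2 degron cells, with a median log2 change of 0.57, while 6 of the 35 subunit genes rose and 2 fell, with a median of 0.039. In Dcp2 degron cells 8 assembly genes rose and 1 (ATP23) fell, with a median of 0.43, while 1 subunit gene (COX5B) rose and 23 fell, with a median of -0.59. A gene was called at an adjusted p under 0.05 in edgeR's quasi-likelihood test (Benjamini-Hochberg over all 4909 genes). Of all genes, 14.2% rose and 12.8% fell in Ccr4/Pop2 degron cells, and 17.6% rose and 19.7% fell in Dcp2 degron cells, with medians of -0.011 and -0.0027. Without the block, 0 respiratory genes were called in any comparison, and over all genes this test called 0.0815% higher and 0% lower in Ccr4/Pop2 degron cells and 0% in either direction in the other comparisons. An unadjusted p under 0.05 was reached without the block by 8 respiratory genes (13.8%, against 7.99% of all genes) in Ccr4/Pop2 degron cells, by 11 (19.0%, against 11.8%) in Dcp2 degron cells and by 12 (20.7%, against 16.4%) between the degron strains. DESeq2 without the block called 1 gene higher in each comparison with the wild type and 0 between the degron strains, beside 0.672%, 1.08% and 3.16% of all genes called in either direction. The calls that follow are those with the block unless stated. All of them kept their sign when any of the 6 libraries was left out, and 8 of the 22 calls in Ccr4/Pop2 degron cells and 15 of the 36 in Dcp2 degron cells held each time. Leaving out wild-type replicate 1 cost the most, with 7 respiratory genes higher and 2 lower in Ccr4/Pop2 degron cells (4.95% and 3.1% of all genes) and 6 higher and 15 lower in Dcp2 degron cells (8.64% and 9.49%). Without that library 4 assembly genes rose in Ccr4/Pop2 degron cells and 4 in Dcp2 degron cells, against 2 subunit genes that rose and 1 that fell in the first and 1 that rose and 14 that fell in the second. Without wild-type replicate 2 the number of subunit genes that fell in Dcp2 degron cells was 12.

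The contrast between both groups of genes is visible in each library as a ratio that needs no scaling between libraries. Summed reads of the 20 assembly genes divided by those of the 35 subunit genes were 0.231 and 0.232 in Ccr4/Pop2 degron cells, 0.281 and 0.279 in Dcp2 degron cells, and 0.142 and 0.149 in the wild type. The groups did not overlap, and replicates differed by far less than the strains. The means were 0.232 ± 0.000707, 0.28 ± 0.00141 and 0.145 ± 0.00495 in the same order (SD, n = 2 each). Against the wild-type library of the same number, the ratio was 1.63 and 1.56 times as high in Ccr4/Pop2 degron cells and 1.98 and 1.87 times as high in Dcp2 degron cells. With 2 libraries against 2, no exact permutation test can pass 0.05, so none was run on ratios.

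**Figure D1:**
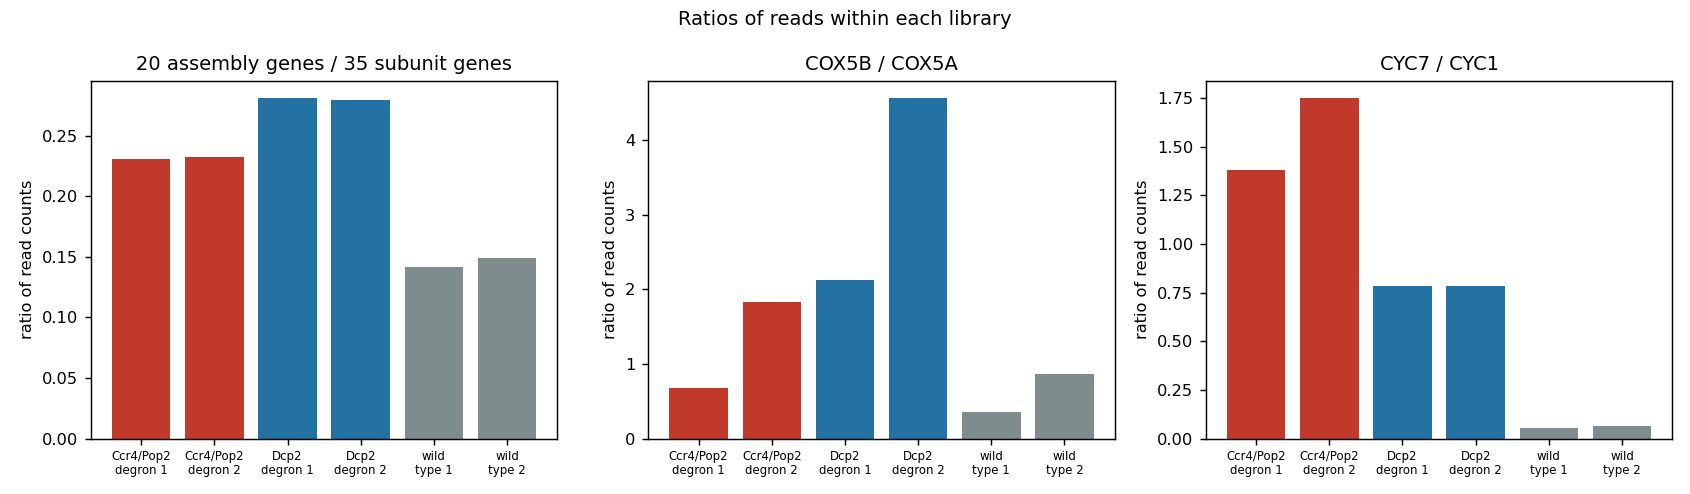
Ratios of read counts within each of the 6 libraries: summed counts of 20 assembly genes over 35 subunit genes (left), COX5B over COX5A (middle) and CYC7 over CYC1 (right). Each bar is 1 library and the axis starts at 0; in all 3 panels both libraries of each degron are above the wild-type library of the same number.

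All 58 genes together took 0.703% and 0.760% of the reads in Ccr4/Pop2 degron cells, 0.685% and 0.695% in Dcp2 degron cells, and 0.588% and 0.609% in the wild type. The 95% Wilson intervals, which cover counting error only and were taken on counts divided by 4 for Ccr4/Pop2 degron replicate 1, ran from 0.692% to 0.715% and 0.748% to 0.773% in Ccr4/Pop2 degron cells, 0.670% to 0.701% and 0.683% to 0.707% in Dcp2 degron cells, and 0.577% to 0.599% and 0.598% to 0.621% in the wild type. The assembly genes made up 0.128% and 0.140%, 0.146% and 0.147%, and 0.0706% and 0.0766% of the reads in the same order of strains. The subunit genes made up 0.555% and 0.602%, 0.519% and 0.527%, and 0.497% and 0.514%. Both shares were higher in every degron library than in the wild type, the subunit share in Dcp2 degron cells by the least.

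Reads are relative, so the direction of a change depends on the scaling. With total-count scaling in place of TMM (both with the block), the median log2 change of all genes moved to 0.10 in Ccr4/Pop2 degron cells, 0.51 in Dcp2 degron cells and -0.33 between the degron strains. Under it, 12 assembly genes rose and 0 fell in Ccr4/Pop2 degron cells, against 9 and 1 subunit genes, beside 20.2% and 8.82% of all genes. In Dcp2 degron cells 17 assembly genes rose and 0 fell, against 4 subunit genes that rose and 5 that fell, with a subunit median of -0.076. Of the 26 respiratory genes that fell in Dcp2 degron cells under TMM scaling, 6 (COR1, QCR6, COX4, ATP1, ATP2 and CYC1) were also called lower with total counts and 2 (ATP5 and ATP17) had a positive change, so the other 20 were called lower with TMM scaling but not with total counts. The 10 that rose were also called higher with total counts. This scaling moved changes in Dcp2 degron cells upward, so it is no check of those rises. The share of all genes called higher became 50.7% and that called lower 6.11%, so the lower subunit levels in Dcp2 degron cells are levels relative to those of other genes.

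**Figure D2:**
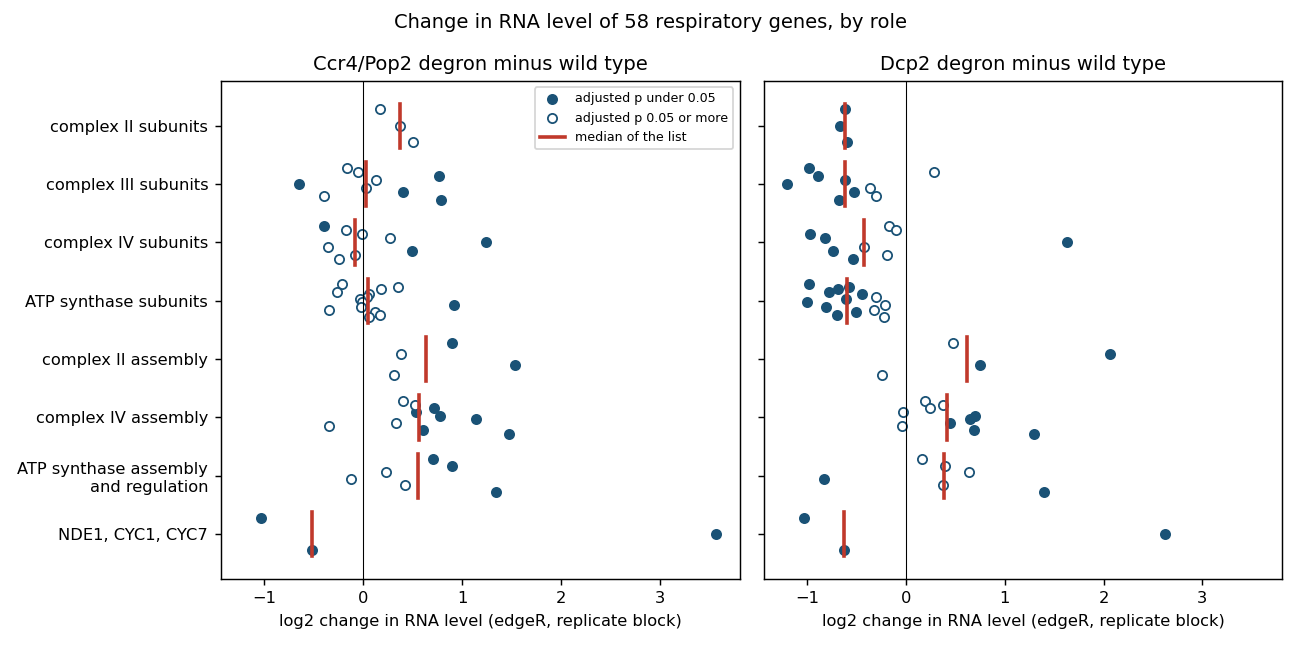
Log2 change in RNA level against the wild type for 58 genes in 8 role lists (edgeR with the replicate block), in Ccr4/Pop2 degron cells (left) and the Dcp2 degron (right). Each point is 1 gene, filled where its adjusted p is under 0.05, and red bars are list medians: medians of the assembly lists are between 0.39 and 0.64, and those of the subunit lists are between -0.079 and 0.37 in Ccr4/Pop2 degron cells and between -0.62 and -0.42 in Dcp2 degron cells.

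Of all genes, 14.2% rose and 12.8% fell in Ccr4/Pop2 degron cells, and 17.6% rose and 19.7% fell in Dcp2 degron cells. Several assembly genes of complex IV rose in both degron strains. In this list of 10 genes, 6 rose and 0 fell in Ccr4/Pop2 degron cells (median 0.57), and 5 rose and 0 fell in Dcp2 degron cells (median 0.42), and without wild-type replicate 1 each count was 2. COX17 (YLL009C), the copper chaperone of complex IV and the textbook Puf3 target, had 182 and 420 CPM in Ccr4/Pop2 degron cells, 118 and 324 CPM in Dcp2 degron cells, and 76.1 and 206 CPM in the wild type. Replicate 2 was the higher library in every strain, so the strains overlap, yet within each number the Ccr4/Pop2 library was highest and the wild-type library lowest. COX17 rose by a log2 change of 1.14 (SE 0.133, 2.21-fold, adjusted p = 7.72e-06, edgeR with the block) in Ccr4/Pop2 degron cells and by 0.65 (SE 0.139, 1.56-fold, adjusted p = 0.0013) in Dcp2 degron cells, and it was higher in Ccr4/Pop2 than in Dcp2 degron cells by 0.50 (SE 0.126, adjusted p = 0.00348). Without the block the adjusted p was 0.811, 0.746 and 0.796 for the same comparisons, and without wild-type replicate 1 the blocked call in Dcp2 degron cells was lost (adjusted p = 0.0648). The call between the degron strains was lost without Ccr4/Pop2 degron replicate 1 (adjusted p = 0.0763) and with total-count scaling (0.11, adjusted p = 0.534).

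COX17 also rose relative to the subunit genes of the same library. Its reads over those of the 35 subunit genes were 0.0362 and 0.0558 in Ccr4/Pop2 degron cells, 0.0345 and 0.0617 in Dcp2 degron cells, and 0.016 and 0.0285 in the wild type. Against the wild-type library of the same number this was 2.26 and 1.96 times in Ccr4/Pop2 degron cells and 2.16 and 2.16 times in Dcp2 degron cells. COX23 (a twin-cysteine protein of the intermembrane space needed for complex IV assembly) had 36.4 and 48.7 CPM in Ccr4/Pop2 degron cells, 27.8 and 50 CPM in Dcp2 degron cells, and 11.8 and 20.1 CPM in the wild type. Both degron strains were above both wild-type libraries and overlapped each other. COX23 rose by 1.48 (SE 0.23, adjusted p = 0.000147, edgeR with the block) in Ccr4/Pop2 degron cells and by 1.30 (SE 0.248, adjusted p = 0.000477) in Dcp2 degron cells. Its change between the degron strains was 0.18 (SE 0.191, adjusted p = 0.458), and without the block the adjusted p was 0.485, 0.353 and 0.925. COX16 and COX20, both needed to build complex IV around its mitochondrially encoded subunits, rose in both strains, by 0.78 and 0.61 in Ccr4/Pop2 degron cells and by 0.70 and 0.69 in Dcp2 degron cells. The COX16 calls were lost without wild-type replicate 1 in both strains and without Ccr4/Pop2 degron replicate 1 in Ccr4/Pop2 degron cells. Those of COX20 were lost without wild-type replicate 2 in both strains and without wild-type replicate 1 or Ccr4/Pop2 degron replicate 2 in Ccr4/Pop2 degron cells. COX14 (0.72) and COX15 (0.54, an enzyme of haem a synthesis) were called in Ccr4/Pop2 degron cells and COX18 (0.45, a membrane insertase) in Dcp2 degron cells. The COX14 call was lost without wild-type replicate 1 (adjusted p = 0.0963), the COX15 call without either wild-type library or Ccr4/Pop2 degron replicate 2 (up to 0.364), and the COX18 call when any of the 4 libraries compared was left out (up to 0.294). None of the 8 assembly genes called higher in Ccr4/Pop2 than in Dcp2 degron cells kept that call with total-count scaling, COX14 and COX15 among them, and without Ccr4/Pop2 degron replicate 1 the number called was 3.

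The 4 assembly genes of complex II did not move together. SDH7, which protects the iron-sulfur subunit during assembly, had 68.1 and 48.7 CPM in Ccr4/Pop2 degron cells, 30.3 and 37.9 CPM in Dcp2 degron cells, and 23.7 and 16.9 CPM in the wild type. The 3 strains did not overlap. SDH7 rose by 1.54 in Ccr4/Pop2 degron cells (SE 0.228, adjusted p = 9.48e-05, edgeR with the block) and by 0.75 in Dcp2 degron cells (SE 0.261, adjusted p = 0.0298), a difference between them of 0.78 (SE 0.206, adjusted p = 0.00447). Its partner SDH6 had 11.6 and 29.5 CPM in Ccr4/Pop2 degron cells, 38.3 and 94.5 CPM in Dcp2 degron cells, and 7.72 and 25 CPM in the wild type, where it had 15 and 31 reads. Only the Dcp2 libraries were above all others. SDH6 rose by 2.06 in Dcp2 degron cells (SE 0.229, adjusted p = 2.29e-06, edgeR with the block), its change in Ccr4/Pop2 degron cells was 0.38 (SE 0.255, adjusted p = 0.30), and it was lower in Ccr4/Pop2 than in Dcp2 degron cells with a log2 change of -1.69 (SE 0.193, adjusted p = 2.26e-06).

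Without the block, SDH7 had an adjusted p of 0.306, 0.448 and 0.286 (edgeR) in these comparisons, and SDH6 0.982, 0.375 and 0.286. The SDH7 change in Dcp2 degron cells lost its call without Dcp2 degron replicate 2 or without either wild-type library (adjusted p up to 0.416), and the difference between the degron strains lost it without Ccr4/Pop2 degron replicate 1 or Dcp2 degron replicate 1 (up to 0.322) and with total-count scaling (0.38, adjusted p = 0.114). The SDH6 difference between the degron strains kept its call under each of these. SDH5, which helps to attach the flavin cofactor of complex II, rose by 0.90 in Ccr4/Pop2 degron cells (adjusted p = 0.00151, edgeR with the block), a call lost without wild-type replicate 1 (adjusted p = 0.174). SDH8, the gene of this list with the most reads in the wild type, had 69.4 and 67.2 CPM in Ccr4/Pop2 degron cells, 43.2 and 51.1 CPM in Dcp2 degron cells, and 54.5 and 57.2 CPM in the wild type. The strains did not overlap, yet the change was 0.31 in Ccr4/Pop2 degron cells (SE 0.168, adjusted p = 0.188, edgeR with the block) and -0.24 in Dcp2 degron cells (SE 0.186, adjusted p = 0.337), and only the difference between the degron strains was called, at 0.55 (SE 0.17, adjusted p = 0.0128). It was lost without Ccr4/Pop2 degron replicate 1 or Dcp2 degron replicate 1 (adjusted p up to 0.163) and with total-count scaling (0.15, adjusted p = 0.527).

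In the list for assembly and regulation of ATP synthase, 3 of 6 genes rose in Ccr4/Pop2 degron cells (ATP11, ATP12 and STF1), and in Dcp2 degron cells STF1 rose and ATP23 fell. The shares of all genes that rose and fell were 14.2% and 12.8% in the first strain and 17.6% and 19.7% in the second. STF1, a regulator of the inhibitor of ATP synthase, had 79.7 and 50 CPM in Ccr4/Pop2 degron cells, 84.6 and 52.1 CPM in Dcp2 degron cells, and 26.8 and 25.8 CPM in the wild type. All degron libraries were above the wild type. Its log2 change was 1.34 in Ccr4/Pop2 degron cells (SE 0.205, adjusted p = 0.000118, edgeR with the block) and 1.40 in Dcp2 degron cells (SE 0.214, adjusted p = 5.29e-05), and without wild-type replicate 1 the call in Ccr4/Pop2 degron cells was lost (adjusted p = 0.0825). ATP11, a chaperone of a catalytic subunit, had 87.8 and 160 CPM in Ccr4/Pop2 degron cells, 66.1 and 102 CPM in Dcp2 degron cells, and 50.4 and 103 CPM in the wild type. Its strains overlapped, with a change of 0.71 in Ccr4/Pop2 degron cells (SE 0.155, adjusted p = 0.00259, edgeR with the block) and 0.16 in Dcp2 degron cells (SE 0.168, adjusted p = 0.484). Without wild-type replicate 1 its call in Ccr4/Pop2 degron cells was lost. ATP12, its counterpart for the other catalytic-head subunit, rose by 0.90 in Ccr4/Pop2 degron cells (adjusted p = 0.00116, edgeR with the block).

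ATP23, a protease that also helps to assemble ATP synthase, had 29.6 and 32.2 CPM in Ccr4/Pop2 degron cells, 15.4 and 22.7 CPM in Dcp2 degron cells, and 32.4 and 35.4 CPM in the wild type. The Dcp2 libraries were below all others. Its change was -0.12 in Ccr4/Pop2 degron cells (SE 0.201, adjusted p = 0.70, edgeR with the block) and -0.83 in Dcp2 degron cells (SE 0.239, adjusted p = 0.0108), where the call was lost without Dcp2 degron replicate 1 or wild-type replicate 1 (adjusted p up to 0.134).

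The Puf3 motif was set beside these changes. Of the 15 assembly genes with the motif, 10 rose and 0 fell in Ccr4/Pop2 degron cells (median 0.71), and 6 rose and 1 fell in Dcp2 degron cells (median 0.40), and without wild-type replicate 1 these were 4 and 0, and 2 and 0. Of the 5 without it, 1 and 2 rose and 0 and 0 fell, with medians of 0.31 and 0.64. Of the 5 subunit genes with the motif, 0 rose and 0 fell in Ccr4/Pop2 degron cells (median -0.033), and 0 rose and 2 fell in Dcp2 degron cells (median -0.30). Over the whole table, 240 of 765 genes with the motif rose and 58 fell in Ccr4/Pop2 degron cells (median 0.22), against 458 that rose and 569 that fell of 4142 without it (median -0.04). In Dcp2 degron cells 152 genes with the motif rose and 87 fell (median 0.11), against 713 and 881 without it (median -0.028). When single libraries were left out, each of these whole-table counts was lowest without wild-type replicate 1. The motif and the role are nearly the same division of the respiratory genes, so their parts cannot be told apart among 20 assembly genes.

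**Figure D3:**
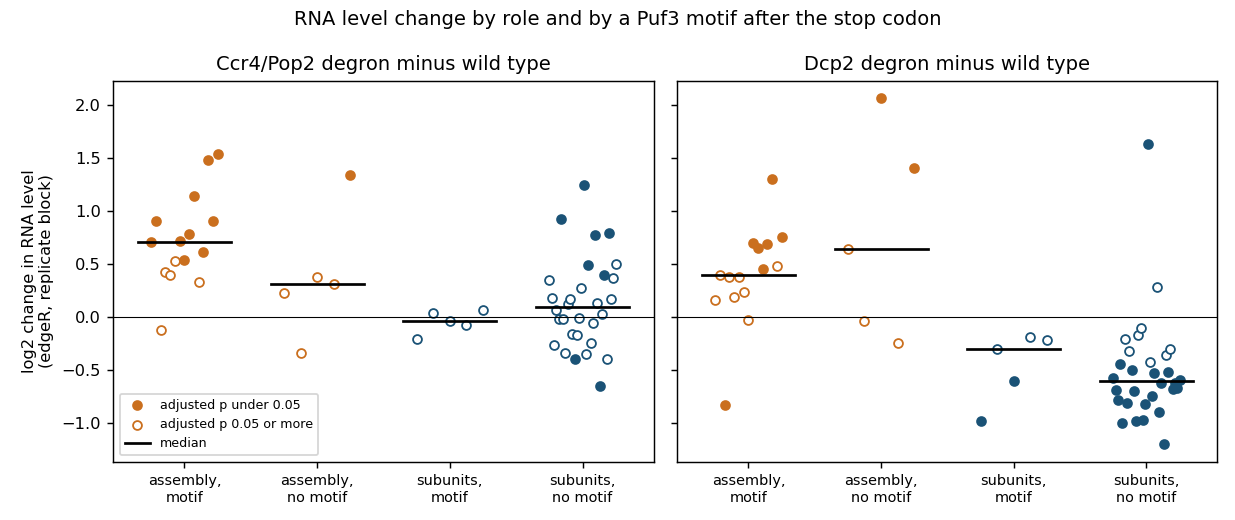
Log2 change in RNA level against the wild type (edgeR with the replicate block) for assembly and subunit genes with and without the motif TGTANATA within 200 bases after the stop codon. Points are genes, filled where the adjusted p is under 0.05, and black bars are medians: the 15 assembly genes with the motif have medians of 0.71 in Ccr4/Pop2 degron cells and 0.40 in Dcp2 degron cells, and the 5 subunit genes with it -0.033 and -0.30.

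With TMM scaling, subunit genes fell in Dcp2 degron cells across all complexes, and few changed in Ccr4/Pop2 degron cells. With total-count scaling, 5 of the 23 that fell (COR1, QCR6, COX4, ATP1 and ATP2) were also called lower. The genes of complex II were not. Under TMM scaling, 19.7% of all genes fell in Dcp2 degron cells. In Dcp2 degron cells 3 of 3 genes of complex II, 6 of 9 of complex III, 4 of 9 of complex IV and 10 of 14 of ATP synthase fell, with medians of -0.62, -0.62, -0.42 and -0.59, and 33 of the 35 changes were below 0. With a library left out these counts went as low as 0, 3, 2 and 6. In Ccr4/Pop2 degron cells 0 of the genes of complex II rose, 3 of complex III, 2 of complex IV and 1 of ATP synthase, while 1 of complex III and 1 of complex IV fell. There 14.2% of all genes rose and 12.8% fell. Between the degron strains 25 of the 35 subunit genes were higher in Ccr4/Pop2 degron cells and 1 (COX5B) lower, with a median of 0.75, against 26.3% and 20.8% of all genes and a median of 0.077. Under total-count scaling with the block these became 14 higher and 6 lower with a median of 0.34, beside 9.64% and 41.1% of all genes. Of all 58 genes, 34 were higher and 2 lower between the degron strains, and 36 of these 36 calls kept their sign when any of the 6 libraries was left out, 20 with the call in every case.

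ATP2, the catalytic beta subunit of ATP synthase, had 318 and 143 CPM in Ccr4/Pop2 degron cells, 139 and 85.4 CPM in Dcp2 degron cells, and 335 and 134 CPM in the wild type. Replicate 1 was the higher library in each strain, and within each number the Dcp2 library was the lowest. It fell in Dcp2 degron cells, with a log2 change of -1.0 (SE 0.155, adjusted p = 6.2e-05, edgeR with the block) and changed by -0.015 in Ccr4/Pop2 degron cells (SE 0.143, adjusted p = 0.953). The alpha subunit gene ATP1 had 168 and 79.5, 89.5 and 51.1, and 236 and 61.2 CPM in the same strains. It fell by 0.98 in Dcp2 degron cells (SE 0.206, adjusted p = 0.00109, edgeR with the block), a call lost without wild-type replicate 1 (-0.33, adjusted p = 0.485), where its CPM was highest. ATP17, a membrane subunit and the one with the most reads in the wild type, had 222 and 494 CPM in Ccr4/Pop2 degron cells, 186 and 294 CPM in Dcp2 degron cells, and 210 and 472 CPM in the wild type. Its strains overlapped. Its change was -0.44 in Dcp2 degron cells (SE 0.141, adjusted p = 0.0188, edgeR with the block), which became 0.078 with total-count scaling, and 0.065 in Ccr4/Pop2 degron cells (SE 0.134, adjusted p = 0.757). The call was lost without Dcp2 degron replicate 2 or either wild-type library. ATP20, a subunit that helps to hold ATP synthase dimers together, was the 1 subunit gene of ATP synthase that rose in Ccr4/Pop2 degron cells (0.92, SE 0.158, adjusted p = 0.000364, edgeR with the block). ATP20 had 215 and 172 CPM in Ccr4/Pop2 degron cells, 78.4 and 100 CPM in Dcp2 degron cells, and 101 and 107 CPM in the wild type, so its Ccr4/Pop2 libraries were above all others.

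In complex III, subunit genes took both directions in Ccr4/Pop2 degron cells. QCR6, an acidic subunit next to the cytochrome c binding site, had 79.3 and 64.4 CPM in Ccr4/Pop2 degron cells, 59.9 and 39.4 CPM in Dcp2 degron cells, and 118 and 108 CPM in the wild type. The 3 strains did not overlap. It fell in both degron strains, with a log2 change of -0.65 in Ccr4/Pop2 degron cells (SE 0.155, adjusted p = 0.00466, edgeR with the block) and -1.20 in Dcp2 degron cells (SE 0.172, adjusted p = 2.84e-05), and the call in Ccr4/Pop2 degron cells was lost without Ccr4/Pop2 degron replicate 1 or wild-type replicate 2 (adjusted p up to 0.0958). RIP1, the Rieske iron-sulfur protein, had 69.4 and 63.1 CPM in Ccr4/Pop2 degron cells, 24.7 and 23.8 CPM in Dcp2 degron cells, and 37.0 and 41.1 CPM in the wild type. Here too the strains did not overlap, but the Ccr4/Pop2 libraries were the highest. RIP1 rose by 0.79 in Ccr4/Pop2 degron cells (SE 0.181, adjusted p = 0.00364, edgeR with the block), fell by 0.68 in Dcp2 degron cells (SE 0.221, adjusted p = 0.0222), and differed by 1.46 between the degron strains (SE 0.192, adjusted p = 9.16e-06). Without the block that last p was 0.0825. Total-count scaling with the block gave -0.16 for RIP1 in Dcp2 degron cells (adjusted p = 0.571). Its calls against the wild type were lost without wild-type replicate 1 in both strains, without Ccr4/Pop2 degron replicate 1 in Ccr4/Pop2 degron cells, and without wild-type replicate 2 or either Dcp2 library in Dcp2 degron cells (adjusted p up to 0.247).

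QCR10, a small subunit not needed for activity, followed the same order as RIP1, with 92.1 and 162 CPM in Ccr4/Pop2 degron cells, 40.1 and 38.4 CPM in Dcp2 degron cells, and 53 and 95 CPM in the wild type. The Dcp2 libraries were below all others. It rose by 0.77 in Ccr4/Pop2 degron cells (SE 0.18, adjusted p = 0.00422, edgeR with the block), fell by 0.89 in Dcp2 degron cells (SE 0.217, adjusted p = 0.00349) and had the largest difference between the degron strains of all respiratory genes, 1.66 (SE 0.194, adjusted p = 3.02e-06). QCR8, the subunit gene of complex III with the most reads in the wild type, had 274 and 788, 160 and 380, and 195 and 624 CPM in the same order of strains. Within each number it was highest in the Ccr4/Pop2 and lowest in the Dcp2 library. Its changes were 0.40 (SE 0.125, adjusted p = 0.0233, edgeR with the block) and -0.52 (SE 0.132, adjusted p = 0.00442). Total-count scaling with the block gave -0.0056 for QCR8 and -0.37 for QCR10 in Dcp2 degron cells (adjusted p = 0.974 and 0.133). The calls of both genes in Dcp2 degron cells were lost without Dcp2 degron replicate 2 or wild-type replicate 2, and those in Ccr4/Pop2 degron cells without Ccr4/Pop2 degron replicate 2 or wild-type replicate 1 for QCR10 and when any of the 4 libraries compared was left out for QCR8 (adjusted p up to 0.60), while those between the degron strains held whichever of the 6 libraries was left out.

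In complex II the membrane anchor gene SDH3 had 120 and 150 CPM in Ccr4/Pop2 degron cells, 50 and 84.4 CPM in Dcp2 degron cells, and 84.4 and 130 CPM in the wild type. Dcp2 degron replicate 2 and wild-type replicate 1 had the same level. Its change was 0.37 in Ccr4/Pop2 degron cells (SE 0.149, adjusted p = 0.0717, edgeR with the block), -0.67 in Dcp2 degron cells (SE 0.167, adjusted p = 0.00405) and 1.04 between the degron strains (SE 0.156, adjusted p = 3.42e-05). Without wild-type replicate 2 the call in Dcp2 degron cells was lost. COX7 (a small subunit of complex IV) had 126 and 234, 48.2 and 108, and 95.7 and 158 CPM in Ccr4/Pop2 degron cells, the Dcp2 degron and the wild type. It rose by 0.49 in Ccr4/Pop2 degron cells (SE 0.142, adjusted p = 0.0163, edgeR with the block) and fell by 0.74 in Dcp2 degron cells (SE 0.16, adjusted p = 0.00137). The first of these calls was lost when any of the 4 libraries compared was left out, and the second without wild-type replicate 1 (adjusted p up to 0.448). Total-count scaling with the block gave -0.16 for SDH3 and -0.23 for COX7 in Dcp2 degron cells (adjusted p = 0.45 and 0.25). COX13, the complex IV subunit gene with the most reads in the wild type, differed little with TMM scaling, with 146 and 335, 154 and 349, and 162 and 380 CPM. Its changes were -0.17 in Ccr4/Pop2 degron cells (SE 0.12, adjusted p = 0.326, edgeR with the block) and -0.10 in Dcp2 degron cells (SE 0.124, adjusted p = 0.561). Total-count scaling with the block called COX13 higher in Dcp2 degron cells (0.42, adjusted p = 0.00819, edgeR). It also called it lower in Ccr4/Pop2 than in Dcp2 degron cells (-0.46, adjusted p = 0.00296).

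**Figure D4:**
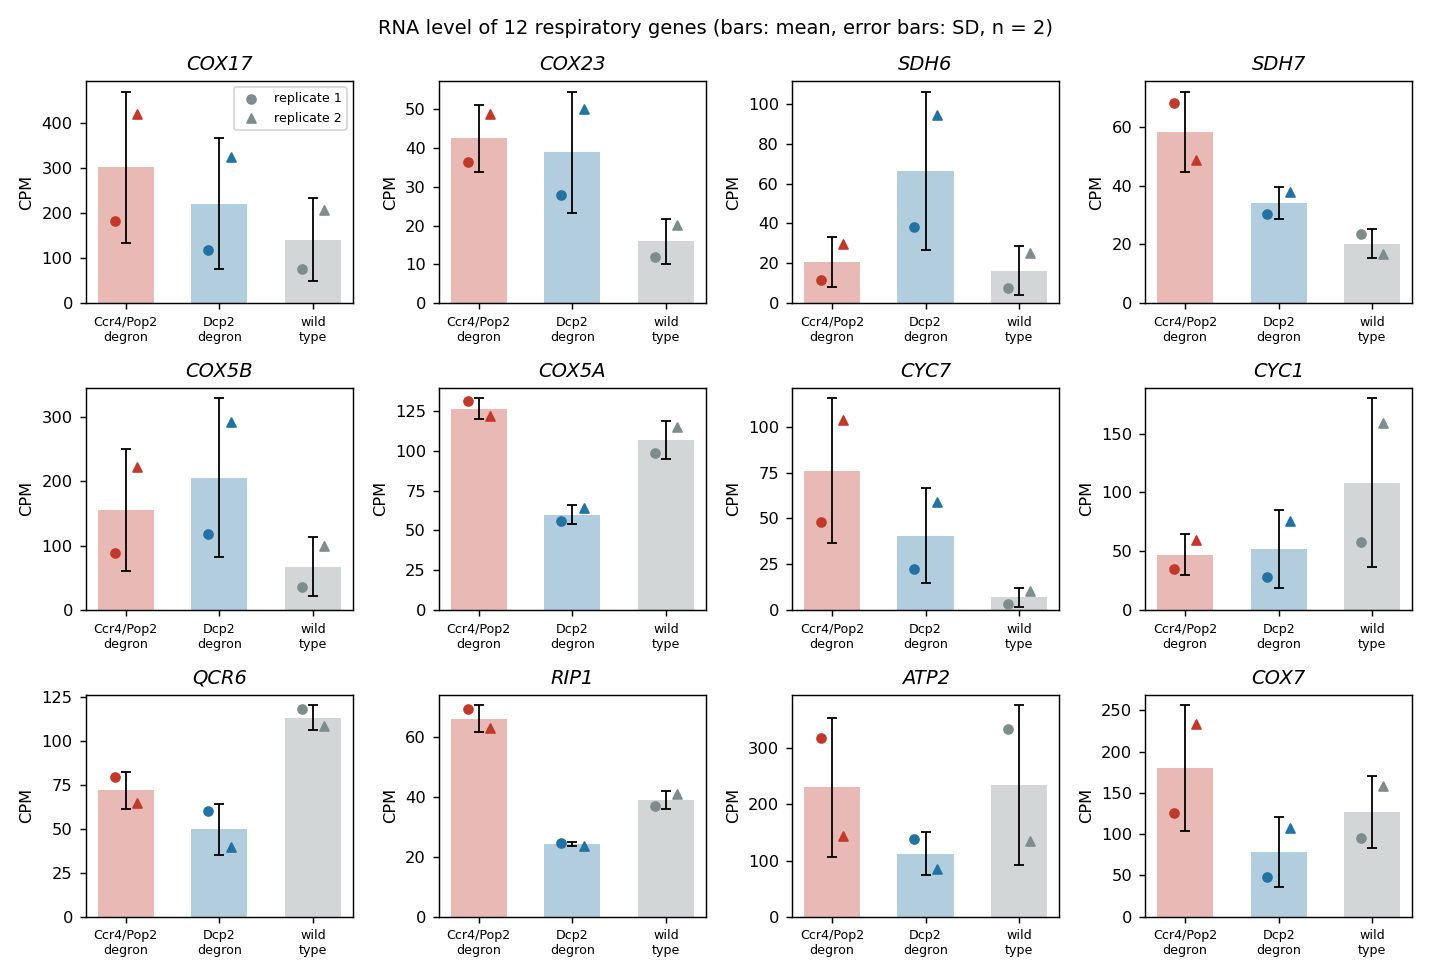
RNA level in CPM of 12 respiratory genes in Ccr4/Pop2 degron cells, the Dcp2 degron and the wild type. Bars are means with SD (n = 2), circles are replicate 1 and triangles replicate 2; each axis starts at 0 and has its own scale, and replicate 2 is the higher library in all 3 strains for genes such as COX17, COX5B and CYC7.

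Isoform genes of the same subunit of complex IV took opposite directions in Dcp2 degron cells. COX5A and COX5B encode alternative forms of a subunit of complex IV, COX5A being the form of aerobic cells and COX5B the form made when oxygen is scarce. COX5B had 88.7 and 223 CPM in Ccr4/Pop2 degron cells, 118 and 293 CPM in Dcp2 degron cells, and 35 and 99.8 CPM in the wild type. Within each number both degron libraries were above the wild type and the Dcp2 library was highest. COX5B rose by 1.24 in Ccr4/Pop2 degron cells (SE 0.151, adjusted p = 1.32e-05, edgeR with the block) and by 1.63 in Dcp2 degron cells (SE 0.154, adjusted p = 6.79e-07), and without the block the adjusted p was 0.771 and 0.448. COX5A had 131 and 122 CPM in Ccr4/Pop2 degron cells, 55.6 and 64.2 CPM in Dcp2 degron cells, and 98.3 and 115 CPM in the wild type. The strains did not overlap, and its change was 0.27 in Ccr4/Pop2 degron cells (SE 0.147, adjusted p = 0.182, edgeR with the block) and -0.82 in Dcp2 degron cells (SE 0.166, adjusted p = 0.000763), where total-count scaling gave -0.31 (adjusted p = 0.131).

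Reads of COX5B divided by reads of COX5A in the same library were 0.679 and 1.83 in Ccr4/Pop2 degron cells, 2.12 and 4.56 in Dcp2 degron cells, and 0.356 and 0.867 in the wild type. Against the wild-type library of the same number the ratio was 1.91 and 2.11 times as high in Ccr4/Pop2 degron cells and 5.96 and 5.26 times in Dcp2 degron cells. The ratio was higher in replicate 2 of every strain, and the Ccr4/Pop2 and wild-type libraries overlap if the number is disregarded. The difference of COX5B between the degron strains was -0.39 (SE 0.131, adjusted p = 0.0195, edgeR with the block), a call lost without either Ccr4/Pop2 library or Dcp2 degron replicate 1 (adjusted p up to 0.0929). Their coding sequences are identical at 66.0% of bases, so reads of the pair can in principle be misassigned, which was not tested.

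Cytochrome c, the carrier between complexes III and IV, showed the largest change of all respiratory genes. CYC7 encodes the minor isoform and had 48.0 and 104 CPM in Ccr4/Pop2 degron cells, 22.2 and 59.1 CPM in Dcp2 degron cells, and 3.09 and 10.5 CPM in the wild type. All degron libraries were above the wild type, where CYC7 had 6 and 13 reads. It rose by a log2 change of 3.57 in Ccr4/Pop2 degron cells (SE 0.264, adjusted p = 2.78e-08, edgeR with the block) and by 2.62 in Dcp2 degron cells (SE 0.301, adjusted p = 2.97e-06), and was higher in Ccr4/Pop2 than in Dcp2 degron cells by 0.95 (SE 0.181, adjusted p = 0.000358). Without the block the adjusted p was 0.306, 0.326 and 0.548. These 3 calls held with the block when any of the 6 libraries was left out.

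CYC1, the major isoform, had 34.7 and 59.6 CPM in Ccr4/Pop2 degron cells, 28.4 and 75.3 CPM in Dcp2 degron cells, and 57.6 and 159 CPM in the wild type. The strains overlap, and within each number both degron libraries were below the wild type. CYC1 fell in both degron strains, with a log2 change of -1.03 in Ccr4/Pop2 degron cells (SE 0.179, adjusted p = 0.000415, edgeR with the block) and -1.03 in Dcp2 degron cells (SE 0.192, adjusted p = 0.000366), with a change of -0.0011 between the degron strains (SE 0.195, adjusted p = 0.997). Reads of CYC7 over reads of CYC1 were 1.38 and 1.75 in Ccr4/Pop2 degron cells, 0.783 and 0.785 in Dcp2 degron cells, and 0.0536 and 0.066 in the wild type. Here the 3 strains did not overlap, and the ratio was 25.7 and 26.5 times that of the wild-type library of the same number in Ccr4/Pop2 degron cells and 14.6 and 11.9 times in Dcp2 degron cells. The coding sequences of the pair are identical at 75.1% of bases, and misassigned reads were not tested.

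NDE1, an NADH dehydrogenase on the outer face of the inner membrane, fell in both degron strains. It had 97.3 and 64.4 CPM in Ccr4/Pop2 degron cells, 80.9 and 68.2 CPM in Dcp2 degron cells, and 139 and 94.2 CPM in the wild type. Ccr4/Pop2 degron replicate 1 was just above wild-type replicate 2, and the Dcp2 libraries were below the wild type. Its change was -0.52 in Ccr4/Pop2 degron cells (SE 0.15, adjusted p = 0.016, edgeR with the block) and -0.63 in Dcp2 degron cells (SE 0.16, adjusted p = 0.00465). The calls were lost without Ccr4/Pop2 degron replicate 2 or either wild-type library in Ccr4/Pop2 degron cells, and without Dcp2 degron replicate 1 or wild-type replicate 1 in Dcp2 degron cells (adjusted p up to 0.34), and total-count scaling gave -0.11 in Dcp2 degron cells (adjusted p = 0.591).

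Counted by library, without a model, 17 of the 58 genes had both Ccr4/Pop2 libraries above both wild-type libraries and 3 had both below, against 16.5% and 15.6% of all genes. In Dcp2 degron cells 9 were above and 19 below, against 21.8% and 20.4% of all genes. Between the degron strains 25 were higher and 2 lower in Ccr4/Pop2 degron cells, against 23.4% and 22.2%.

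Tail lengths were compared with limma on the log2 scale, over the 3949 genes that reached 20 reads in all 6 libraries. They include 53 respiratory genes. The 5 others (CYC7, SDH6, ATP22, ATP25 and COX19) were left out. By strain averages, tails of respiratory genes were longest in Ccr4/Pop2 degron cells and shortest in Dcp2 degron cells. The Dcp2 and wild-type libraries overlapped, with medians of 28.5 and 37.1 nt in Dcp2 degron cells and 37.0 and 41.7 nt in the wild type. The median over these genes averaged 50 ± 1.06 nt in Ccr4/Pop2 degron cells, 32.8 ± 6.08 nt in Dcp2 degron cells and 39.4 ± 3.32 nt in the wild type (SD, n = 2 each). Between the degron strains, 41 of the 53 genes had longer tails in Ccr4/Pop2 degron cells and 0 had shorter ones at an adjusted p under 0.05, with a median log2 change of 0.62, against 69.6% and 0.0253% of all 3949 genes and a median of 0.53. Both Ccr4/Pop2 libraries were above both Dcp2 libraries in 52 of them and below in 0, against 95.7% and 0.127%. The share of respiratory genes is thus close to that of all genes. Leaving out either Ccr4/Pop2 library took this count to 0, and so did centring each library on its own median tail, after which the median difference was 0.069.

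Against the wild type no respiratory gene was called for tail length: limma called 0 of 53 in Ccr4/Pop2 degron cells, where 13 (24.5%, against 28.8% of all genes) had an unadjusted p under 0.05, and 0 in Dcp2 degron cells, where 16 (30.2%, against 20.1%) had. In Ccr4/Pop2 degron cells 48 genes had both libraries above both wild-type libraries and 1 (SDH4) had both below, against 90% and 0.253% of all genes, with a median change of 0.31 (0.30 for all). In Dcp2 degron cells 32 genes had both libraries below the wild type and 0 above, against 44.9% and 1.67%, with a median of -0.30 (-0.22 for all). A fit to the Ccr4/Pop2 degron and wild-type libraries alone called 33 genes longer and 0 shorter, against 59.1% and 0.0252% of all genes. The Dcp2 libraries differed from each other: their median tails over all genes were 31.45 and 38.76 nt, while those of Ccr4/Pop2 degron cells were 50.64 and 51.56 nt and those of the wild type 38.38 and 42.87 nt.

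**Figure D5:**
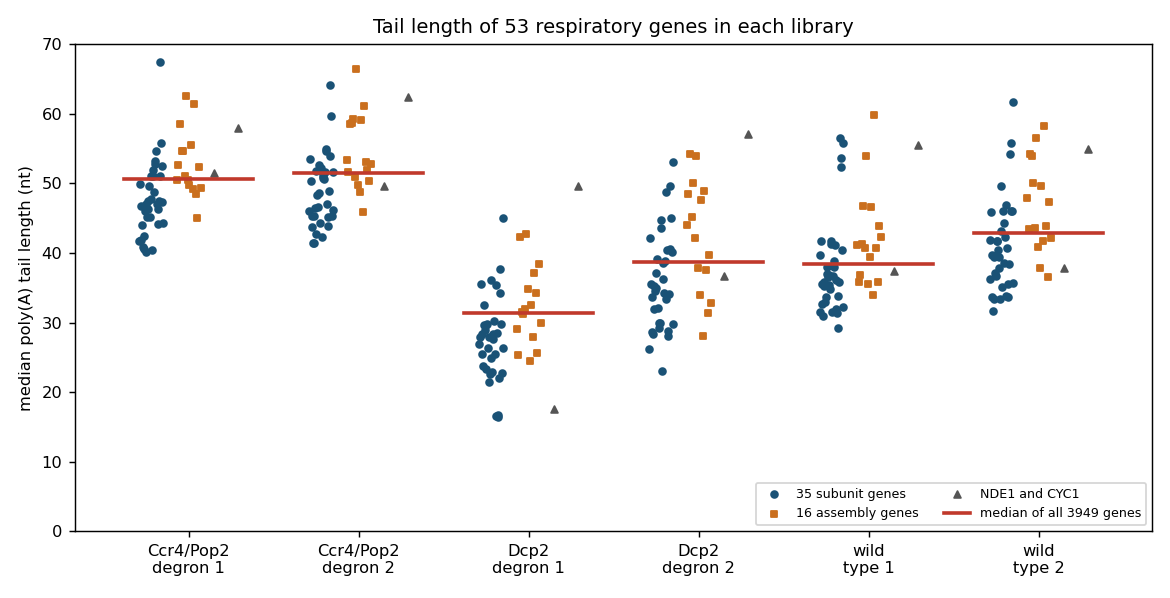
Median poly(A) tail length in nt of 53 respiratory genes in each of the 6 libraries, as points for 35 subunit genes, 16 assembly genes, and NDE1 and CYC1, with the median of all 3949 genes as a red line. The axis starts at 0; points of both Ccr4/Pop2 libraries lie above 40 nt, and 4 genes lie under 20 nt in Dcp2 degron replicate 1 (2 subunit points overlap there).

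Subunit genes had shorter tails than assembly genes in every strain by their list averages, 47.9 ± 1.13 against 52.3 ± 0.849 nt in Ccr4/Pop2 degron cells, 31.5 ± 4.95 against 37.4 ± 8.06 nt in Dcp2 degron cells, and 38 ± 2.47 against 43.3 ± 3.25 nt in the wild type (SD, n = 2 each). Complex III genes had the widest range between strains, with averages of 48.2, 28.1 and 36.9 nt in the same order and a median log2 change between the degron strains of 0.82. CYT1, the c-type cytochrome of complex III, had tails of 52.8 and 55.0 nt in Ccr4/Pop2 degron cells, 16.6 and 33.4 nt in Dcp2 degron cells, and 31.9 and 33.9 nt in the wild type. Its Ccr4/Pop2 libraries were above all others and its Dcp2 libraries overlapped the wild type. The difference between the degron strains was 1.19 on the log2 scale (SE 0.295, adjusted p = 0.018, limma), with 0.71 in Ccr4/Pop2 degron cells (adjusted p = 0.173) and -0.48 in Dcp2 degron cells (adjusted p = 0.356) against the wild type.

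QCR7, a small subunit of complex III, had tails of 44.2 and 45.2 nt in Ccr4/Pop2 degron cells, 16.5 and 28.8 nt in Dcp2 degron cells, and 33.9 and 35.5 nt in the wild type. QCR6 had 46.4 and 43.9, 16.8 and 28.1, and 29.2 and 33.7 nt in the same order, so in both genes the 3 strains did not overlap. The differences between the degron strains were 1.04 (SE 0.246, adjusted p = 0.0166, limma) for QCR7 and 1.05 (SE 0.239, adjusted p = 0.0156) for QCR6. QCR9 had the longest tails of the respiratory genes in Ccr4/Pop2 degron replicate 1, with 67.5 and 64.1 nt, against 34.2 and 40.6 nt in Dcp2 degron cells and 56.6 and 54.2 nt in the wild type. Its strains did not overlap, with a difference of 0.82 between the degron strains (SE 0.133, adjusted p = 0.0131, limma) and a change of -0.57 in Dcp2 degron cells against the wild type (SE 0.133, adjusted p = 0.151). CYC1 tails were 51.5 and 49.6 nt in Ccr4/Pop2 degron cells, 17.6 and 36.7 nt in Dcp2 degron cells, and 37.4 and 37.9 nt in the wild type, again without overlap. The degron strains differed by 0.99 for CYC1 (SE 0.309, adjusted p = 0.0296, limma).

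Some genes with long tails in the wild type, picked for their small tail changes, differed less in some comparisons. Others with long wild-type tails did not, among them QCR9 above and SDH2, an iron-sulfur subunit gene of complex II. SDH2 tails were 55.8 and 59.7 nt in Ccr4/Pop2 degron cells, 29.8 and 45.1 nt in Dcp2 degron cells, and 52.4 and 55.8 nt in the wild type. SDH4, a membrane anchor of complex II, had 52.5 and 51.7 nt in Ccr4/Pop2 degron cells, 45.1 and 53.1 nt in Dcp2 degron cells, and 55.8 and 61.7 nt in the wild type, the 1 respiratory gene whose Ccr4/Pop2 tails were both below the wild type. Its change was -0.17 in Ccr4/Pop2 degron cells (SE 0.135, adjusted p = 0.315, limma) and 0.089 between the degron strains (SE 0.135, adjusted p = 0.539). NDE1 had 58 and 62.5 nt, 49.7 and 57.1 nt, and 55.5 and 55.0 nt in Ccr4/Pop2 degron cells, the Dcp2 degron and the wild type, and RIP1 had 51.1 and 53.9, 37.7 and 49.7, and 53.7 and 46.0 nt. COX23 had 61.4 and 61.1 nt in Ccr4/Pop2 degron cells, 37.2 and 48.9 nt in Dcp2 degron cells, and 59.8 and 58.3 nt in the wild type, so the difference of 0.52 between the degron strains (SE 0.154, adjusted p = 0.0261, limma) lay with its Dcp2 libraries. ATP23 and QCR10 had the highest tail changes in Dcp2 degron cells against the wild type, 0.10 and 0.012, with adjusted p = 0.771 and 0.973 (limma).

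Level and tail took different orders over the strains in COX17 and COX5B, whose level rose in both degron strains. Of all genes, 95.7% had both Ccr4/Pop2 tails above both Dcp2 tails, and 44.9% had both Dcp2 tails below the wild type. Longer tails in Ccr4/Pop2 than in Dcp2 degron cells are thus not particular to COX17 and COX5B. COX17 tails were 49.8 and 48.8 nt in Ccr4/Pop2 degron cells, 24.5 and 34.0 nt in Dcp2 degron cells, and 39.4 and 37.8 nt in the wild type, where its level was lowest. COX5B tails were 40.4 and 42.3, 22.9 and 23.1, and 31.6 and 35.1 nt in the same order. In both genes the 3 strains did not overlap: tails were longest in Ccr4/Pop2 and shortest in Dcp2 degron cells, with differences between the degron strains of 0.77 for COX17 (SE 0.171, adjusted p = 0.0151, limma) and 0.85 for COX5B (SE 0.121, adjusted p = 0.0131).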

How the data were processed

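The authors deposited a single table with a read count and a median poly(A) tail length per gene and library. Counts are not normalized per the file headers. The deposited medians are taken as tail lengths in nucleotides from the file headers, which name no unit. Minimap2, SAMtools 1.9 and the build sacCer3 are named in the submitters' processing notes; the counting rule, the use of strand and the choice of genes are not given in the sources used here. Replicate numbers come from the sample titles, with the unnumbered column of each strain taken as replicate 1 by elimination, and nothing says that replicates were separate cultures, so p-values measure only the spread between these libraries. The number of sample columns that matched no sample was 0.

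Levels were tested with edgeR 4.0.16 in R 4.3.3 (glmQLFit, glmQLFTest, TMM; filterByExpr removed 0 genes), with the 3 strains and 6 libraries fitted together, and tails with limma 3.58.1 on the log2 scale. Benjamini-Hochberg adjustment ran over all genes tested. Precision is limited by 2 libraries per strain and by a median count per gene of 54 to 432. Whether the replicate numbers pair the libraries was checked from their deviations from the group means, correlated over genes between same-numbered libraries. For level it was 0.823 (Ccr4/Pop2 degron and wild type), 0.804 (Dcp2 degron and wild type) and 0.794 (both degron strains), so the numbers were taken as paired and blocked values are printed. The labels do not say what a number shares. For tails it was 0.148, 0.257 and 0.0548, and no block was used. Alternatives were DESeq2 1.42.0, other scalings, filters, read minimums, centring and the omission of each library. The fits were also run on simulated counts and tails. These held no difference between replicate numbers, so that run cannot judge the calls made with the block.

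No respiratory gene had the same 6 counts as another gene or overlapped another annotated gene. Role lists and pathway lists were fixed by name, and the members and lists were chosen with earlier results of these data known. Full values are given for the 3 respiratory genes with the largest increase and decrease among those called in each comparison, the 3 largest and smallest tail changes, the gene with the most reads of each list, the isoform pairs and COX17. Other genes named, ATP5, ATP12, ATP20, COX14, COX15, COX16, COX18, COX20 and SDH5 among them, were chosen after their values were seen.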

Additional observations from a re-analysis of the deposited data

How the results depend on the processing

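Levels of the 58 respiratory genes gave 0 calls in each comparison without the block. With the replicate block, which pairs same-numbered libraries, 22 genes were called in Ccr4/Pop2 degron cells and 36 in Dcp2 degron cells against wild type, and 36 between the degron strains, that is 37.9%, 62.1% and 62.1% of them against 27.0%, 37.4% and 47.1% of all genes. With total-count scaling added to the block these were 25, 28 and 27 (43.1%, 48.3% and 46.6%, against 29.0%, 56.8% and 50.7% of all genes), and with the counts of Ccr4/Pop2 degron replicate 1 divided by 4 (chosen after seeing the data) 22, 37 and 36 (25.1%, 39.7% and 45.9% of all genes). Leaving out each library gave 0 without the block and, chosen after seeing the data, 9 to 28, 21 to 40 and 26 to 34 with it (8.05% to 34.1%, 18.1% to 41.2% and 32.5% to 44.4% of all genes). DESeq2 gave 1, 1 and 0 (0.672%, 1.08% and 3.16% of all genes). Median level changes ran from 0.076 to 0.50, -0.55 to 0.046 and 0.21 to 0.66 when a library was left out, the extremes coming from omission of wild-type replicate 2 in both comparisons with the wild type and of Ccr4/Pop2 degron replicate 2 between the degron strains. Total-count scaling gave medians of 0.20 (0.21 with the block) in the Dcp2 degron and 0.11 (0.11 with the block) between the degron strains.

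Tail calls ran from 0 to 33 in the Ccr4/Pop2 degron, 0 to 40 in the Dcp2 degron and 0 to 51 between the degron strains when a library was left out: 33 of 53 without either Dcp2 library (59.2% of all genes without replicate 1 and 59.1% without replicate 2), 40 lower without Dcp2 degron replicate 2 (52.3% of all genes) and 51 of 53 between the degron strains without it (93.0%). A fit to both groups alone called 33 in the Ccr4/Pop2 degron. Centring each library gave 0 calls between the degron strains and medians of -0.022, -0.082 and 0.069. Without Dcp2 degron replicate 1 the median between the degron strains was 0.41, and the range with a library left out was 0.41 to 0.79. The pairing check over genes gave low correlations for tails (0.0548 to 0.257), which cannot show a shift shared by whole libraries. With the replicate block in the tail fit, 48 genes were called between the degron strains (83.9% of all genes) and 0 against the wild type.

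Single genes changed sign in 46 of 888 results, most without the block and with a library left out. In the Dcp2 degron against the wild type the level ranges were -1.77 to 0.2 for ATP1, -1.35 to 0.46 for QCR8, -0.82 to 0.62 for COX13, -0.25 to 1.53 for COX17, -0.96 to 0.18 for ATP17 and -0.28 to 0.72 for ATP11. Total-count scaling gave 0.26 (0.27 with the block) for SDH8, 0.41 (0.42) for COX13 and 0.061 (0.078) for ATP17. In the Ccr4/Pop2 degron the ranges were -0.59 to 1.38 for QCR8, -0.91 to 0.5 for COX13 and -0.63 to 0.7 for ATP17. Between the degron strains they were -1.24 to 0.4 for COX5B, -0.0026 to 1.73 for QCR8, -0.81 to 0.64 for COX13, -0.3 to 1.35 for COX17, -0.13 to 1.04 for ATP17, -0.21 to 0.37 for NDE1 and -0.69 to 0.71 for CYC1, and total counts gave -0.25 (-0.3 with the block) for NDE1. Tail ranges in the Dcp2 degron were -0.18 to 0.38 for ATP23, -0.22 to 0.24 for QCR10 and -0.15 to 0.047 for NDE1 (0.16 centred). In the Ccr4/Pop2 degron RIP1 ran from -0.034 to 0.19 (-0.26 centred) and COX23 was -0.28 centred. Between the degron strains SDH4 ran from -0.03 to 0.21 (-0.46 centred), and NDE1 and RIP1 were -0.37 and -0.27 centred. The cause of these changes was not tested.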

Other observations

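Genes around the respiratory chain, from lists of names, were measured with the same fits (edgeR, replicate block, adjusted p under 0.05). Of 28 listed genes for other assembly factors and activators of mitochondrial translation, 18 rose and 0 fell in the Ccr4/Pop2 degron (median log2 change 0.70), and 9 rose and 2 fell in the Dcp2 degron (median 0.23), beside 14.2% and 12.8%, and 17.6% and 19.7%, of all genes. PET117, an assembly factor of complex IV, rose by 1.74 in the Ccr4/Pop2 degron (adjusted p = 1.23e-05, edgeR with the block) and by 1.03 in the Dcp2 degron (adjusted p = 0.0023). SCO1, which passes copper to complex IV, rose by 1.18 (adjusted p = 0.0002, edgeR with the block) and 0.74 (adjusted p = 0.0086). Of 12 listed genes of the tricarboxylic acid cycle, 6 rose and 0 fell in the Ccr4/Pop2 degron, and 4 rose and 1 fell in the Dcp2 degron. CIT1, the mitochondrial citrate synthase, changed by 0.88 in the Ccr4/Pop2 degron (adjusted p = 0.00131, edgeR with the block) and by 0.35 in the Dcp2 degron (adjusted p = 0.168).

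Of 6 carriers and channels, 0 rose and 0 fell in the Ccr4/Pop2 degron, and 2 rose and 3 fell in the Dcp2 degron. The shares of all genes were 14.2% and 12.8%, and 17.6% and 19.7%. MIR1, the mitochondrial phosphate carrier, changed by -0.037 in the Ccr4/Pop2 degron and fell by 1.39 on the log2 scale in the Dcp2 degron (adjusted p = 8.04e-06, edgeR with the block). PET9, the major ADP/ATP carrier, changed by 0.21 and fell by 0.94 (adjusted p = 0.000152, edgeR with the block), while AAC1, a minor isoform, changed by -0.092 and rose by 0.74 (adjusted p = 0.0321). Of 6 listed regulators, 0 were called in the Ccr4/Pop2 degron, and 1 rose and 1 fell in the Dcp2 degron. HAP5, a DNA-binding subunit of the Hap complex, changed by -0.54 in the Ccr4/Pop2 degron (adjusted p = 0.0932, edgeR with the block) and rose by 1.04 in the Dcp2 degron (adjusted p = 0.000965). HAP4, its activating subunit, changed by 0.38 in the Ccr4/Pop2 degron (adjusted p = 0.0745, edgeR with the block) and by -0.47 in the Dcp2 degron (adjusted p = 0.036). The examples were chosen after their values were seen, and their values with single libraries left out are not given.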
